A study of Mus musculus with 20 samples.

Results

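The replication-dependent histone genes of the mouse hypothalamus were followed in ribosome-depleted total RNA. Every gene whose GENCODE M21 symbol starts with Hist1h, Hist2h, Hist3h or Hist4h was taken if it held at least 20 reads summed over the 20 libraries. Of 70 such symbols among 53801 annotated genes, 65 passed, and 37304 genes in all had a read. The 65 comprised 6 linker histone H1 genes, 18 H2A, 17 H2B, 11 H3 and 13 H4 genes. By cluster, 54 belonged to Hist1, 8 to Hist2, 2 to Hist3 and 1 to Hist4. Hist1h2aj, Hist1h2al and Hist3h2bb-ps are annotated as pseudogenes and are kept in these counts. Clusters were read from the symbol, and Hist1h2al lies at chr13:51202727-51203065, away from the other Hist1 genes. The 5 symbols left out were Hist1h2ba with 12 reads, and Hist1h2aa, Hist2h2bb, Hist2h3c1 and Hist3h2a, all listed at 0. Of these, Hist2h2bb, Hist2h3c1 and Hist3h2a overlap another annotated gene on the same strand (Gm42743, Gm20634 and Trim17). How reads in such overlaps were counted is not given in the sources used here, so their 0 need not mean that the RNA was absent. Just inside the threshold were Hist2h2aa1 with 21 reads and Hist1h1t, the testis linker histone, with 29.

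The study compared C57BL/6J wild-type mice (WT) with mice lacking both Necdin (Ndn) and Magel2 (the MADIN double knockout, KO), a model of Prader-Willi syndrome. Hypothalami were taken 6 h after light on (day) or 18 h after light on (night) from animals on a cycle of equal light and dark phases, which gave the groups WT_day, WT_night, KO_day and KO_night with 5 libraries each. The labels give the KO genotype as a knockdown in one field and as a double knockout in the design text, and age, sex and the cells that carry the deletion are not given in the sources used here. The labels do not say that the libraries of a group came from separate animals, so p-values measure the spread between these samples, which may be partly technical.

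Replication-dependent histone mRNAs are unusual among messenger RNAs in that most end in a conserved stem-loop and carry no poly(A) tail, so RNA prepared by ribosomal depletion retains them where poly(A) selection would lose them. Their transcription and 3' end cleavage are coupled to S phase in dividing cells, and cells that have left the cycle draw mainly on replication-independent variants such as H3.3 and H2A.Z. Some of the same genes also give longer, polyadenylated transcripts that run past the stem-loop in differentiated tissue.

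The stem-loop is the sequence that defines the family, and it was found in the GENCODE M21 transcript models of 42 of the 65 genes. It began between 21 and 58 bp after the stop codon, with a median of 31. The sites of abundant genes of each class, and of the genes that passed a test below and have the stem-loop in their model, are given 5′ to 3′ as DNA with the stem-loop in capitals. Hist1h4a is added because it departs from the other H4 genes.
Hist1h1e: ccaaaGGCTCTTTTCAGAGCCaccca
Hist1h1d: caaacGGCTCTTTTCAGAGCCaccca
Hist2h2ac: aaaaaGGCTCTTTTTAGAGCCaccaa
Hist3h2ba: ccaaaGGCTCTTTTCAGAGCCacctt
Hist1h2be: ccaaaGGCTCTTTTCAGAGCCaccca
Hist1h3e: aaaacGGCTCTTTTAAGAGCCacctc
Hist1h4d: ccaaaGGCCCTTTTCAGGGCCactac
Hist1h4h: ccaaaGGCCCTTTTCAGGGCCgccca
Hist1h4a: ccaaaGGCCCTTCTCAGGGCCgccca
The stem separated the H4 genes from the rest. All 10 H4 genes with a site had the stem of Hist1h4d, and the sites of all other classes had the stem of Hist1h1e. The commonest whole sequence outside H4 was that of Hist1h1e, carried by 3 H1, 9 H2A, 8 H2B and 4 H3 genes, and within H4 that of Hist1h4d, carried by 7 genes. Hist1h4a was the single H4 gene with its variant of the loop. Of the 23 genes with no site in the model, 12 had models that stop less than 30 bp after the stop codon, which is too short to hold most such sites. The pseudogenes Hist1h2aj, Hist1h2al and Hist3h2bb-ps have no annotated stop codon, so they were not searched, but they count among the 23. In 21 genes the model ends at most 60 bp after the stem-loop. In 11 it runs on for 61 to 500 bp and in 10 for more than 500 bp, among them Hist1h1d with 4884 bp, Hist4h4 with 2445 bp, Hist1h1e with 1153 bp and Hist1h4d with 770 bp. Those 10 genes held 37.7% of the summed level of the 65, against 22.6% for the 21 with short ends. The counts are per gene, so reads before and after the stem-loop could not be separated.

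Promoters were read for the 57 genes that matched RefSeq (GRCm38.p6), from 250 bases before to 50 after the start. Those of Hist3h2ba and Hist2h2ac, which passed the test between day and night in WT, and of Hist1h4h, the gene with the highest level per length, are printed with matches on either strand in capitals to the CCAAT box (its letters), the TATA box, searched as TATAAA, and the octamer, searched as ATTTGCAT (each motif was searched on its own, and matches may overlap). They lie at chr11:58948661-58948960 on the plus strand, chr3:96220831-96221130 on the minus strand and chr13:23530794-23531093 on the plus strand.
Hist3h2ba: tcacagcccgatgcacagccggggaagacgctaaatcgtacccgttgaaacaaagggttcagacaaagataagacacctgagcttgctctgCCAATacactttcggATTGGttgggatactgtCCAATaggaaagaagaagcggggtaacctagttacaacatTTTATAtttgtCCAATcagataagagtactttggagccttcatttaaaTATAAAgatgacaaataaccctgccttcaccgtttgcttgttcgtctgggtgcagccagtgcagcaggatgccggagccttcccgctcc
Hist2h2ac: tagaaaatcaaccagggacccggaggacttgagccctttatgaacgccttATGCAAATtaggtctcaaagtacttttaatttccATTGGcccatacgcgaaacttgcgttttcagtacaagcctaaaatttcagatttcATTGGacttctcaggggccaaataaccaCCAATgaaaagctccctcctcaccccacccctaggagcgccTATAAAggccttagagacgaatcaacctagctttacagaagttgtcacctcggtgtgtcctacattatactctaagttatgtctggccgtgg
Hist1h4h: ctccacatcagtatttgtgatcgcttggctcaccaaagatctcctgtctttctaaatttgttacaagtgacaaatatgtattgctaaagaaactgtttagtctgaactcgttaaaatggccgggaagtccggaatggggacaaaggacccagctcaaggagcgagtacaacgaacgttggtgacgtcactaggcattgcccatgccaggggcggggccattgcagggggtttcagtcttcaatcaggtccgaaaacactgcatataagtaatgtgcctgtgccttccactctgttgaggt
Hist2h2ac held 3 CCAAT matches, 1 TATAAA and 1 octamer, Hist3h2ba held 4 CCAAT and 2 TATAAA, and Hist1h4h held none of the 3 motifs. CCAAT was present in 48 of 57 promoters (84.2%), against 37.4% of 32817 RefSeq promoters of the same length. All 6 matched H1, 16 H2A, 14 H2B and 9 H3 promoters had it, but only 3 of 12 H4 promoters, those of Hist1h4a, Hist1h4c and Hist1h4d. TATAAA was present in 57.9% against 13.6% of all promoters. The octamer was present in 15.8% against 1.74%, and its 9 carriers were 5 H2A and 4 H2B genes. Where an H2A and an H2B gene start close together on opposite strands, their windows overlap, so the same match can count for both. These matches are letters in a window and not measured binding.

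Total reads assigned to genes ranged from 32066289 to 48697647 per library, and the 65 histone genes took 15411 to 29427 of them (0.0448% to 0.0653%). The library labelled WT_day 3 went against its label. Its level of Ndn was 30.9 CPM (reads of a gene scaled to a common library total) and that of Magel2 2.15 CPM, where the other 9 WT libraries held 239 to 346 and 15.6 to 19.5 CPM and the KO libraries 0.248 to 1.01 and 0 to 0.182 CPM. It is kept under its label, and values without it are given. A second conflict concerns time: the time field of 6 libraries contradicts the title (WT_night 1, KO_day 1 and 2, KO_night 1, 2 and 3), and groups follow the title. KO_day 5 is the exception: its title names neither day nor night, and it was placed by the time field. The title of WT_day 5 repeats that of another WT_day library apart from a running number. Hypothalamic marker genes were present in every library, Oxt at 154 to 334 CPM and Pmch at 210 to 343 CPM.

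The H4 genes held about as many reads as the other classes together. Summed over the 65 genes the level was 532 ± 58.9 CPM (SD, n = 20 libraries), of which the 13 H4 genes gave 49.1%, the 6 H1 genes 18.7%, the 17 H2B genes 15.6%, the 11 H3 genes 8.79% and the 18 H2A genes 7.82%. By cluster, Hist1 on chromosome 13 gave 84.2%, Hist2 on chromosome 3 10.2%, the 2 Hist3 genes on chromosome 11 3.78% and the single Hist4 gene on chromosome 6 1.77%. In bulk tissue, fewer cells of a type and less RNA per cell cannot be told apart. On the scale of level per length, the median gene of class H4 stood at 26.9 CPM per kb, against 5.72 for H3, 4.67 for H1, 3.05 for H2B and 1.11 for H2A. Most H2A reads came from the Hist2 cluster, with 26.5 CPM from 4 genes, against 15.1 CPM from 14 genes of Hist1. All 18 H2A genes overlap another annotated gene, mostly on the opposite strand. Shared sequence also varies, from 8.92% of 75-base windows in Hist2h2ab to 100% in Hist2h2aa2. How such reads were counted is not given, and its part in the H2A level and in this comparison of clusters was not tested. H2B was led by 14 Hist1 genes at 56.0 CPM, with 20.1 CPM from the 2 Hist3 members, Hist3h2ba and the pseudogene Hist3h2bb-ps.

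**Figure D1:**
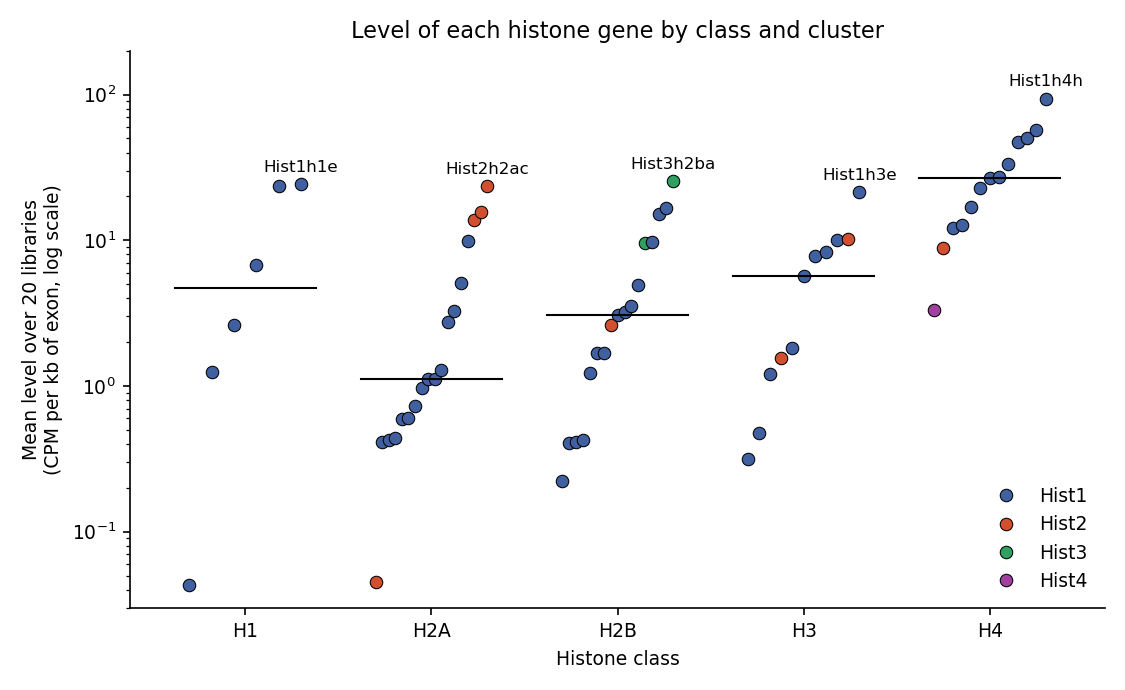
Mean level over 20 libraries of each of the 65 histone genes in CPM per kb of exon (log axis), by class on the x axis; colours give the cluster, lines the class median, and the highest gene of each class is named. Class H4 has the highest median (26.9 CPM per kb) and the highest gene, Hist1h4h at 93.9.

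A few genes carried most of the reads. Hist1h4d, which encodes the core histone H4 like the 12 other H4 genes, had the highest CPM of the 65 (64.98, from 49715 reads). It was followed by Hist1h1e (linker histone H1.4) at 46.8, Hist1h4h at 44.1, Hist1h4c at 41.1 and Hist1h1c (linker histone H1.2) at 36.6 CPM. The first 6 genes with Hist1h2bc (19.3 CPM) held 47.5% of the summed level, and Hist1h3e (17.9), Hist3h2ba (15.7), Hist1h4k (14.8), Hist2h4 (14.4), Hist1h2be (13.5) and Hist1h4f (13.1 CPM) brought it to 64.3%. Per kb the order changed: Hist1h4h led at 93.9, then Hist1h4d at 57.1, Hist1h4c at 50.1 and Hist1h4k at 47.5 CPM per kb. The highest per kb in the other classes were Hist3h2ba (H2B, 25.5), Hist1h1e (H1, 24.2), Hist2h2ac (H2A, 23.4) and Hist1h3e (H3, 21.4 CPM per kb). Hist4h4, with a model of 2863 bp, stood at 3.30. Hist1h1d (H1.3) had 9.24 CPM but 1.24 CPM per kb over a model of 7425 bp.

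At the low end, 5 genes were not tested because too few libraries reached the count minimum: Hist1h2al, Hist1h2an, Hist1h2aj, Hist1h1t and Hist2h2aa1, with 158, 123, 116, 29 and 21 reads in all. Several members are close copies, and how the authors' counting treated reads that fit more than 1 gene is not given in the sources used here. In 28 of the 65 genes over 50% of the 75-base windows of the model also occur in another gene, and in 5 none do. Matches to either strand of the other gene count here, and genes that overlap the locus of the gene itself were left out. Every window of Hist2h2aa2 also occurs in the predicted gene Gm20633, which overlaps its copy Hist2h2aa1 on the opposite strand. Hist2h2aa2 held 5583 reads where Hist2h2aa1 held 21. Hist2h2aa1 also overlaps Gm20634 on the same strand, while Hist2h2aa2 overlaps other genes on the opposite strand only. The part of these overlaps in the difference was not tested. Hist1h4m and Hist1h4n share 89.0% of the windows of Hist1h4m, and Hist1h2bq shares 96.1% of its windows with Hist1h2br. Hist1h1e and Hist1h2be overlap on the same strand. Levels of single copies in such sets are uncertain.

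With the groups used here, the mean summed level was lower at night than by day in WT, and higher at night than by day in KO. In the WT_day libraries it was 586.7, 550.2, 584.2, 571.2 and 625.7 CPM, and in WT_night 451.0, 431.2, 449.5, 517.2 and 548.5 CPM. Every WT_day library was thus above every WT_night library, narrowly for WT_day 2 against WT_night 5, and WT_night 1, 2 and 3 were the lowest of all 20. In KO_day it was 587.8, 498.4, 475.7, 536.9 and 480.1 CPM, and in KO_night 646.0, 568.6, 509.3, 513.2 and 516.4 CPM. KO_night 1 was the highest of the 20 libraries, and the KO groups overlapped each other and both WT groups. The group means were 584 ± 27.6, 479 ± 50.6, 516 ± 46.9 and 551 ± 58.5 CPM (SD, n = 5 each), in the same order of groups. Without WT_day 3, and with the scaling factors estimated again, the WT_day mean was 581 CPM. The direction in KO depends on the time labels. The time field gives KO_day 1 and 2 as night and KO_night 1, 2 and 3 as day. With that field the median log2 change of the tested genes in KO turned negative, as given below. No test is given for sums over genes chosen together.

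**Figure D2:**
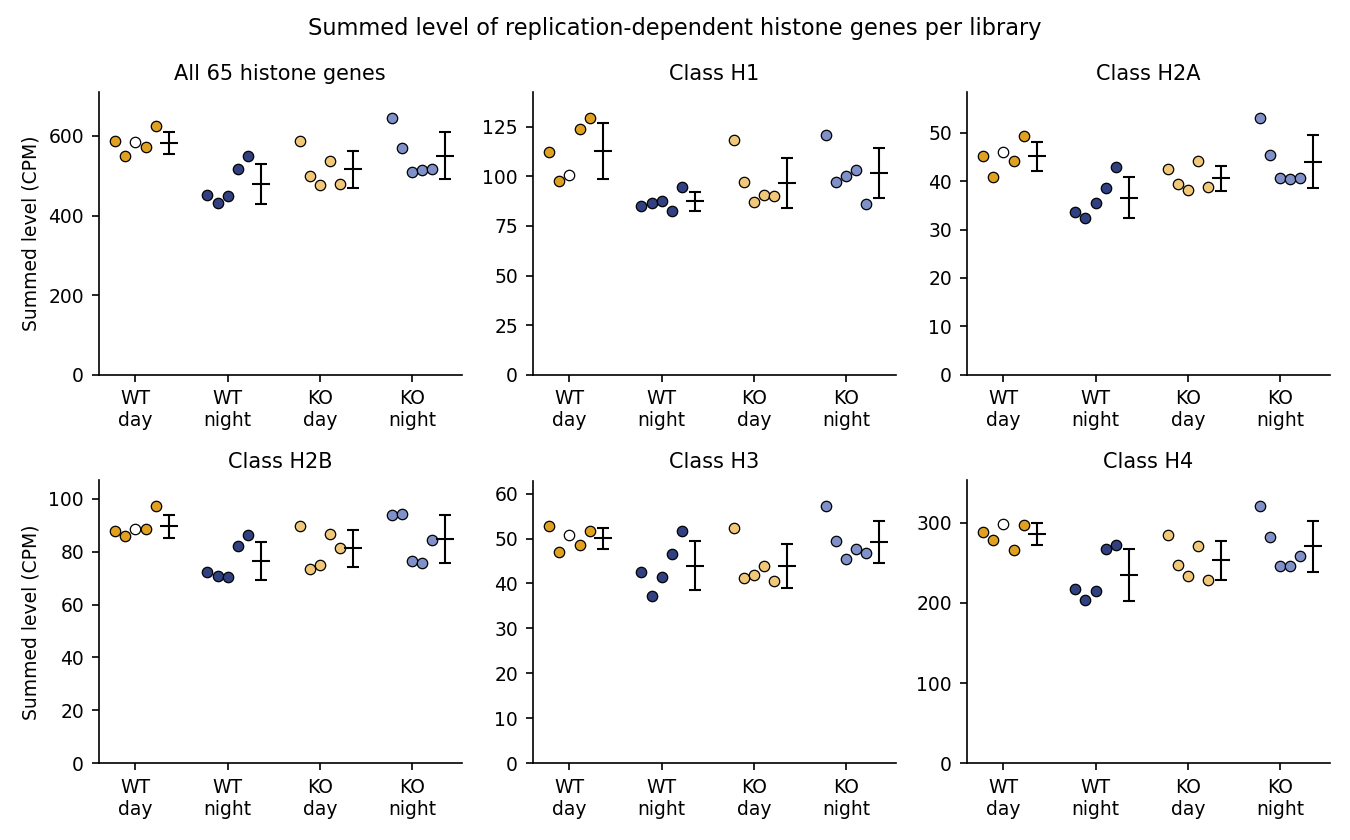
Summed level in CPM of the 65 histone genes and of each class, one point per library in replicate order, with group mean and SD as bars (n = 5); the open point is WT_day 3. Over all 65 genes WT_day (550.2 to 625.7 CPM) lies above WT_night (431.2 to 548.5 CPM), while KO_day and KO_night overlap.

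In each of the 5 classes the group means fell in the order WT_day, KO_night, KO_day, WT_night. In H3 this order was slight: KO_day and WT_night were nearly equal, at 43.98 ± 4.88 and 43.92 ± 5.46 CPM (SD, n = 5 each). The H3 means of WT_day and KO_night were also close, at 50.1 ± 2.35 and 49.3 ± 4.66 CPM. Class H1 ran from 113 ± 13.97 CPM in WT_day to 87.4 ± 4.59 in WT_night, with 96.7 ± 12.7 in KO_day and 102 ± 12.5 in KO_night (SD, n = 5 each). WT_day and WT_night did not overlap in this class (lowest 97.7 and highest 94.9 CPM). Class H4 ran from 286 ± 13.6 in WT_day to 235 ± 32.3 CPM in WT_night, with 253 ± 24.1 in KO_day and 271 ± 31.6 in KO_night. In H2A the WT_day and WT_night means were 45.2 ± 3.05 and 36.6 ± 4.24 CPM, in H2B 89.6 ± 4.39 and 76.4 ± 7.24, and in H3 50.1 ± 2.35 and 43.9 ± 5.46 CPM. The day and night ranges of WT overlapped in H2A, H2B, H3 and H4. The Hist3 pair, a gene and a pseudogene, also separated, at 22.3 ± 1.74 in WT_day and 17.5 ± 0.705 CPM in WT_night. Among the 60 tested genes, the highest of the 4 group means lay in WT_day for 29 and in KO_night for 25, and the lowest lay in WT_night for 39 and in KO_day for 16.

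Night against day in WT asks whether the genes differ over the light cycle in normal animals. Hist3h2ba, an H2B gene of the Hist3 cluster (ENSMUSG00000056895, GRCm38 chr11:58948920-58949533), fell at night. Its level in WT_day was 17.9, 15.7, 17.5, 17.2 and 18.7 CPM, and in WT_night 14.3, 13.4, 13.3, 13.5 and 14.2 CPM. The groups did not overlap, and the log2 change was -0.34 ± 0.067 (SE, edgeR quasi-likelihood test, adjusted p = 0.0262). Hist2h2ac, an H2A gene of the Hist2 cluster (ENSMUSG00000068855, chr3:96220361-96220880), also fell. It stood at 14.4, 12.5, 13.3, 14.1 and 16.4 CPM in WT_day and at 8.43, 9.37, 10.55, 10.6 and 11.2 CPM in WT_night. Here too no WT_night library reached the lowest WT_day library, and the log2 change was -0.49 ± 0.10 (adjusted p = 0.0407).

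These 2 genes were those called of 60 tested, both lower, where 0.144% of all 22181 tested genes were called lower and 0.275% in either direction (0.131% higher). At an unadjusted p under 0.05 the numbers were 25 of the 60 (41.7%) and 15.9% of all genes. The fitted change was lower at night in 54 of 60, with a median log2 of -0.23 against 0.0049 for all tested genes. In 7 genes every WT_night library was below every WT_day library (background 2.79%): Hist2h2ac, Hist3h2ba, Hist1h1c, Hist1h4c and, chosen here after their values were seen, Hist1h1a, Hist1h4j and Hist2h2ab. No member lay above day in every library (background 2.53%). Hist1h1c, with 39.4, 35.3, 36.3, 51.2 and 53.1 CPM by day and 31.4, 31.1, 32.5, 27.5 and 32.9 CPM at night, missed the threshold (log2 -0.47, adjusted p = 0.0702). Hist1h4c also missed it (log2 -0.32, adjusted p = 0.0811), as did the most abundant gene Hist1h4d (log2 -0.26, adjusted p = 0.150) and Hist1h4h (log2 -0.20, adjusted p = 0.369). All 5 tested H1 genes and all 13 H4 genes had a lower fitted level at night, with class medians of -0.35 and -0.31, against -0.11 to -0.19 in H2A, H2B and H3.

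The calls were not stable. No member was called without WT_day 1, 3, 4 or 5 or without WT_night 2, 3 or 4, in fits that called 9 to 60 genes in all, where the fit of all 20 libraries called 61. Without WT_night 1, 1 member was called among 37 genes. Without KO_night 4, whose data enter through the shared estimate of spread, 5 were called among 179 genes. The adjusted p of Hist3h2ba over the 20 fits with 1 library left out ranged from 0.0158 to 0.121 and that of Hist2h2ac from 0.0217 to 0.146; without WT_day 3 they were 0.0893 and 0.0825. With the time field in place of the title, or with the trend of fold change over gene length removed, neither was called, although both stayed lower in all 31 alternatives.

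KO against WT at night asks what the deletion changes in the dark phase. It shares the WT_night libraries with the comparison above. Hist1h1d, linker histone H1.3 (ENSMUSG00000052565, chr13:23553262-23560686), stood at 15.2, 8.29, 9.69, 11.4 and 9.94 CPM in KO_night and at 7.42, 6.83, 7.90, 7.97 and 9.32 CPM in WT_night. KO_night 1 was far above the rest, and KO_night 2 lay within the WT_night range. The gene rose in KO with a log2 change of 0.47 ± 0.14 (adjusted p = 0.0359). Hist1h2bq, an H2B gene (ENSMUSG00000069307, chr13:21806612-21810197), had 1.36, 1.36, 1.25, 1.12 and 0.821 CPM in KO_night and 0.739, 0.504, 0.497, 0.536 and 1.05 CPM in WT_night. It rose by 0.84 ± 0.22 on the log2 scale (adjusted p = 0.0245), with KO_night 5 below WT_night 5. Summed with its near copy Hist1h2br it was 1.73 ± 0.312 CPM in KO_night and 1.13 ± 0.320 CPM in WT_night (SD, n = 5), and the ranges overlapped. Hist2h2ac had 15.7, 12.7, 12.4, 10.6 and 10.8 CPM in KO_night, against the WT_night values above, and rose by 0.32 ± 0.10 (adjusted p = 0.0472). Its KO_night 4 and 5 lay within the WT_night range.

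These 3 genes of 60 rose and none fell, where 5.18% of all tested genes were called higher and 11.9% in either direction (6.77% lower). The members' count was thus near the background. At an unadjusted p under 0.05 the numbers were 25 of 60 (41.7%) and 29.9% of all genes. In fitted change 55 of 60 were higher, against 51.0% of all genes, with a median log2 of 0.23 against 0.0051, and the medians by class were between 0.17 and 0.29. No member separated KO_night from WT_night in every library (background 2.67% higher and 2.39% lower). Hist1h4k, an H4 gene (log2 0.28, adjusted p = 0.0501), and Hist2h4, the H4 gene of the Hist2 cluster (log2 0.27, adjusted p = 0.0542), had the next lowest p. The 2 most abundant H4 genes did not pass: Hist1h4d had a log2 change of 0.10 ± 0.084 (adjusted p = 0.435) and Hist1h4h one of 0.24 ± 0.11 (adjusted p = 0.125).

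Single libraries decided these calls as well. The fit of all 20 libraries called 2649 genes, of which 3 were members. The count of members was 2 of 2314 without WT_day 3, 1 of 1845 without WT_night 2 and 1 of 2313 without KO_night 1. It was 0 without WT_night 1 or 3 or KO_night 2 or 3, where 122 to 513 genes were called in all. It was 5 of 2513 without KO_night 5, 8 of 4355 without WT_night 4, 9 of 4253 without KO_night 4 and 14 of 2134 without WT_night 5. Hist2h2ac kept its call only without KO_day 1, WT_night 4, WT_night 5, KO_night 4 or KO_night 5 (adjusted p 0.0207 to 0.150 over the 20 fits; 0.0595 without WT_day 3), and Hist1h1d without KO_night 1 had a log2 change of 0.31 (adjusted p = 0.113). With the time field no member and 4 genes in all were called, and with the length trend removed Hist1h2bq alone was (adjusted p = 0.0446).

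**Figure D3:**
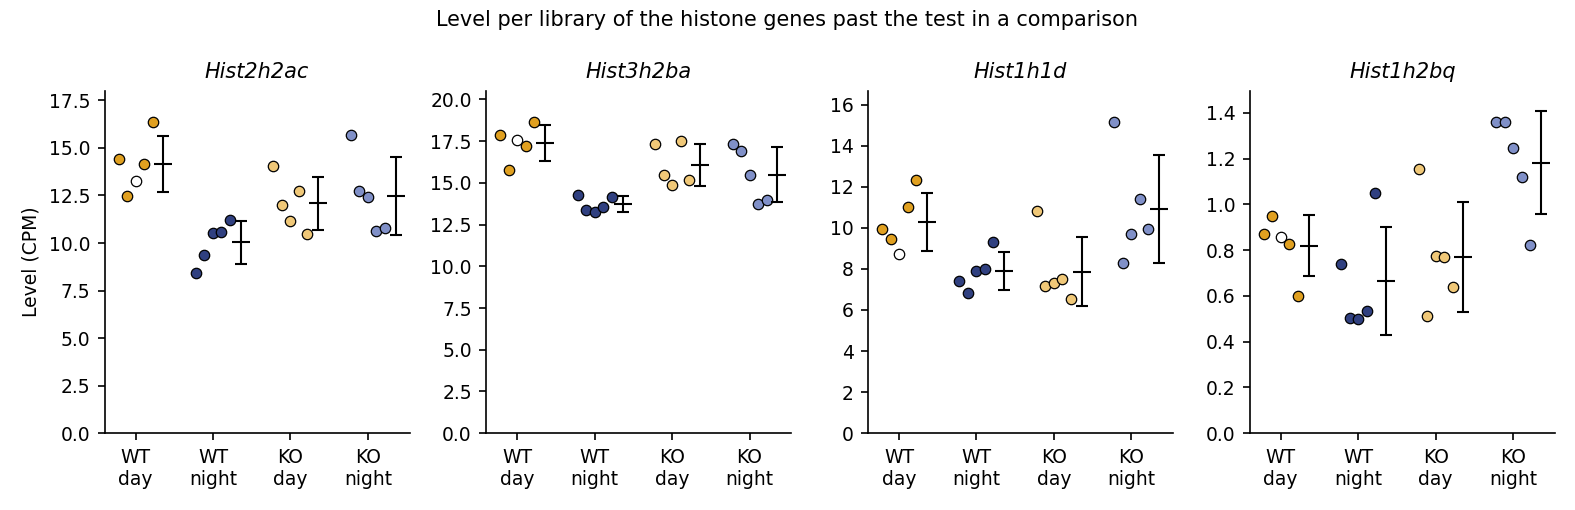
Level in CPM of the 4 histone genes that passed the test in a comparison, one point per library in replicate order with group mean and SD as bars (n = 5); the open point is WT_day 3. Hist2h2ac and Hist3h2ba separate WT_day from WT_night, while the high Hist1h1d mean of KO_night holds 1 library at 15.2 CPM.

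By day most fitted levels were lower in KO, without a call. None of 60 passed edgeR's test for KO against WT by day (background 0.113%, of which 0.0631% higher and 0.0496% lower), 14 had an unadjusted p under 0.05 (23.3%, against 9.62% of all genes), and DESeq2 called 0. The fitted change was higher in 10 of 60, with a median log2 of -0.17 against -0.0055 for all genes; without WT_day 3 the median was -0.16. Hist1h1d had a log2 change of -0.39 ± 0.14 (adjusted p = 0.336), with KO_day values of 10.8, 7.18, 7.31, 7.497 and 6.54 CPM against 9.92, 9.48, 8.74, 11.003 and 12.3 CPM in WT_day. KO_day 1 was within the WT_day range and the other 4 were below it. The log2 change of Hist2h2ac was -0.23 ± 0.10 (adjusted p = 0.465) and that of Hist3h2ba -0.12 ± 0.066 (adjusted p = 0.618). No member separated KO_day from WT_day in every library (background 1.48% higher and 1.24% lower).

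Night against day in KO, which shares the KO_night libraries with the comparison of genotypes at night, gave no call with edgeR either (background 0.0721%, of which 0.0541% higher and 0.018% lower), and no member separated the groups in every library (background 1.63% higher and 0.879% lower). Of the 60, 12 had an unadjusted p under 0.05 (20%, against 17.7% of all genes), and DESeq2 called 2 members among 469 genes. The fitted change was higher at night in 50 of 60, with a median log2 of 0.11 against 0.0016. With the time field in place of the title, which moves 5 of the 10 KO libraries, the median turned to -0.055. The log2 change of Hist1h1d was 0.48 ± 0.14 (adjusted p = 0.106) and that of Hist1h2bq 0.64 ± 0.21 (adjusted p = 0.141), while Hist2h2ac (0.050 ± 0.10) and Hist3h2ba (-0.050 ± 0.067) differed by less than 1 SE. Without KO_day 1, 2 members were called among 328 genes, against 16 genes with all libraries.

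Averaged over both times, KO and WT showed no member called by edgeR (background 1.31%, of which 0.789% higher and 0.523% lower), with 3 of 60 at an unadjusted p under 0.05 (5%, against 19.6% of all genes), 0 by DESeq2, and a median log2 of 0.027. In the same contrast Ndn fell by 8.77 and Magel2 by 7.44 on the log2 scale. Averaged over both genotypes, night and day gave none (background 0.117%, of which 0.0766% higher and 0.0406% lower), with 12 at an unadjusted p under 0.05 (20%, against 11.8%), 1 by DESeq2, and a median of -0.029. The medians of these averages were close to 0 and did not keep their sign in every alternative: that of KO against WT was -0.042 over the libraries whose time labels agree and -0.0097 without KO_night 1. Those of the separate comparisons had opposite signs.

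The interaction term tests that opposition itself: whether the change between night and day differs between KO and WT. No member passed edgeR's test, and no gene of the 22181 did (background 0.0%). An unadjusted p under 0.05 was found for 36 of 60 members (60%) and for 22.1% of all genes. The median log2 interaction was 0.38 against 0.0031 for all genes, with 55 of 60 above 0. The lowest adjusted p belonged to Hist1h1d (0.86 ± 0.20, adjusted p = 0.0588), followed by Hist1h4f, an H4 gene (0.49 ± 0.13, adjusted p = 0.0641), and Hist2h2ac (0.55 ± 0.14, adjusted p = 0.0650). All 13 H4 genes and all 5 tested H1 genes were above 0, with medians of 0.42 and 0.49. DESeq2 called 9 members among 858 genes. With edgeR, 10 members among 1555 genes were called without WT_night 4, 11 among 1512 without KO_night 4, 5 among 474 without KO_day 1 and 3 among 717 without KO_day 4. No member was called without WT_day 3 or any other library.

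**Figure D4:**
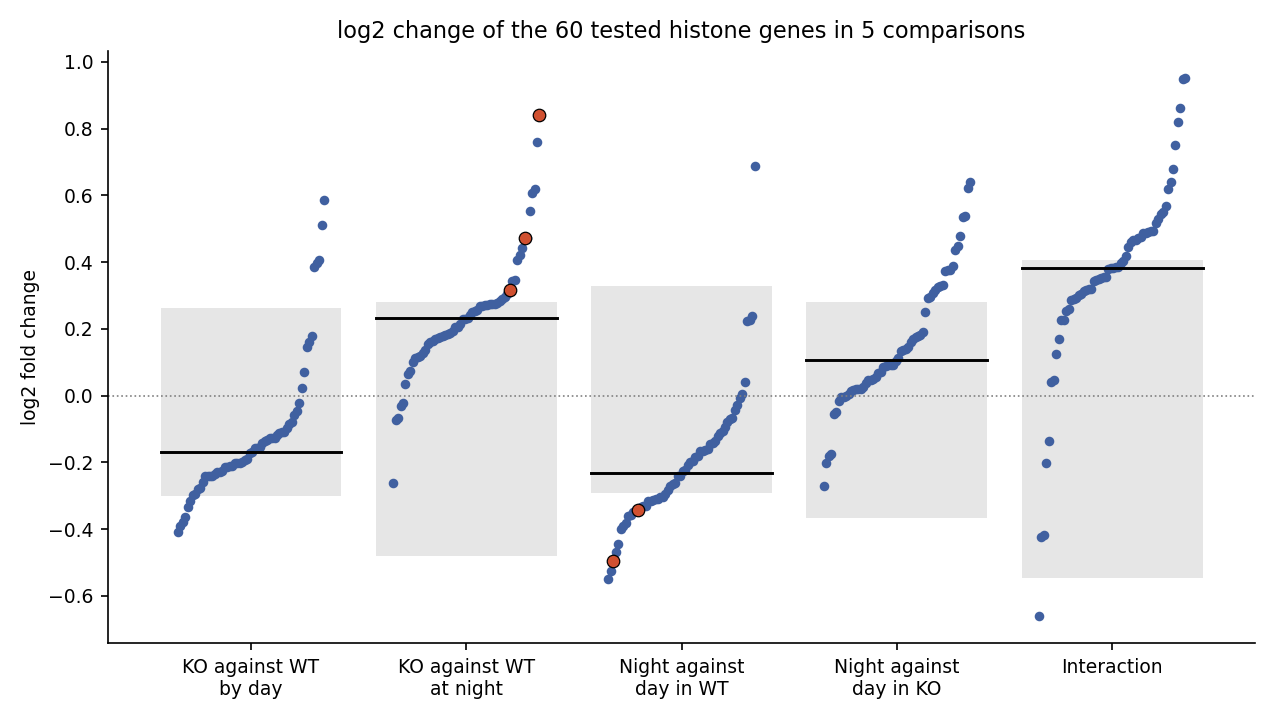
log2 change of the 60 tested histone genes (points, in rising order) in 5 comparisons; black lines are their medians, grey bands hold the middle 90% of all 22181 tested genes, and red points passed edgeR's test. The medians are -0.17, 0.23, -0.23, 0.11 and 0.38 from left to right.

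Genes grouped by how their model ends had medians of the same sign. For night against day in WT, the median log2 was -0.30 in the 10 tested genes with over 500 bp of model after the stem-loop and -0.24 in the 10 with 61 to 500 bp. It was -0.18 in the 20 with at most 60 bp and -0.22 in the 20 with no stem-loop found in the model. For KO against WT at night the same groups had medians of 0.20, 0.18, 0.28 and 0.24. Gene length as such moved with the groups. At the median span of the members, 534 bp, the trend of log2 deviation over gene length in all genes stood at 0.041 in WT_day and -0.029 in WT_night, and for KO at -0.0044 by day and 0.060 at night. With that trend removed, the members' median was -0.17 for WT night against day, 0.15 for KO against WT at night and 0.25 for the interaction. The directions were unchanged in these 3 comparisons, and the sizes were smaller.

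WT_night 1, 2 and 3 held the lowest level of 11, 14 and 11 of the 60 genes, and KO_night 1 the highest of 21. Leaving out WT_night 1, 2 and 3, an alternative chosen after seeing that they were lowest, necessarily raises WT_night. The median then was -0.050 for night against day in WT and 0.075 for KO against WT at night, with no member called. Mitochondrial ribosomal RNA took 14.99% to 22.6% of reads, lowest in KO_night 4 and between 18.4% and 22.1% in the WT_night libraries. Its part in these results was not tested.

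The H3.3 genes stood above every replication-dependent H3 gene in level per length. H3f3b and H3f3a, which encode H3.3, were at 42.9 and 24.4 CPM per kb, against 21.4 CPM per kb for Hist1h3e, the highest H3 member. Cenpa, the centromeric H3 variant, was at 0.0607 CPM per kb. The 11 variant genes summed to 477 ± 6.69 CPM in WT_day and 432 ± 22.1 in WT_night, which did not overlap (467 to 485 and 401 to 462 CPM), and to 466 ± 24.2 in KO_day and 475 ± 34.3 in KO_night, which did. Of the 11, H2afj, an H2A variant, rose in KO at night (log2 0.31, adjusted p = 0.0253), where 5.18% of all tested genes were called higher. None of the 11 passed in the other comparisons. Their medians were 0.13 for KO against WT at night and -0.056 for night against day in WT. In the averaged comparisons the lowest p belonged to H1f0, the linker histone of resting cells, and H2afj between genotypes (log2 0.12 and 0.13, adjusted p = 0.218 and 0.237), and to H3f3b between times (-0.15, adjusted p = 0.189).

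Of the 19 genes for histone transcription and 3′ end processing, 17 were found and tested. Upf1, a helicase needed for histone mRNA decay, rose in KO averaged over both times (log2 0.17, adjusted p = 0.0314), where 0.789% of all tested genes were called higher. It also rose at night (0.22, adjusted p = 0.0206), where 5.18% were called higher. Pou2f1, which encodes the octamer-binding factor Oct-1 and is named here after its value was seen, fell in KO at night (-0.20, adjusted p = 0.0292), where 6.77% were called lower. The others did not pass in any comparison, among them Sympk, a scaffold of the cleavage complex, and Zfp473, a zinc finger protein of the processing complex (log2 0.11 and 0.26 averaged, adjusted p = 0.0905 and 0.175). Slbp, the stem-loop binding protein, was at 22.7 CPM, and Npat, the coactivator of histone transcription, at 45.5 CPM. Among 13 tested histone chaperones, Ssrp1, a subunit of the FACT complex, and Daxx, a chaperone of H3.3, rose in KO at night (log2 0.15 and 0.22, adjusted p = 0.0327 and 0.0381), and none fell. The background there was 5.18% called higher and 6.77% lower.

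Genes of S phase and proliferation were read beside the histones. The 23 genes summed to between 77.6 and 95.4 CPM per library. Mki67 stood at 1.14 CPM, or 0.113 CPM per kb, Top2a at 0.927 CPM, or 0.103 per kb, and Cdt1 was listed at 0. None of 18 tested genes passed in any of the 7 comparisons. At an unadjusted p under 0.05 the number was 3 for night against day in WT, 2 for KO against WT at night and 2 in the interaction. These were 16.7%, 11.1% and 11.1% of the 18, against 15.9%, 29.9% and 22.1% of all tested genes. The median log2 of the 18 was -0.065 for night against day in WT and 0.059 for KO against WT at night. The lowest p in the averaged comparisons were those of Cdc20, a mitotic activator, between genotypes (log2 0.48, adjusted p = 0.192), and Mcm6, a subunit of the replicative helicase, between times (-0.18, adjusted p = 0.213).

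Cell type markers were read beside these results. For KO against WT at night, 2 of 6 oligodendrocyte, 1 of 5 oligodendrocyte precursor, 1 of 6 astrocyte, 2 of 7 tested neuron and 2 of 10 hypothalamic markers rose, and 1 of 6 microglia and 1 of 5 blood markers fell. Of all tested genes, 5.18% were called higher there and 6.77% lower. The summed oligodendrocyte markers ranged from 2084 to 2803 CPM in KO_night and from 1929 to 2389 CPM in WT_night, and the hypothalamic markers from 1011 to 1203 and from 746 to 966 CPM. For night against day in WT no marker of the 10 lists passed. There the pituitary markers ranged from 48.5 to 884 CPM in WT_day and from 31.5 to 202 CPM in WT_night, and blood markers from 240 to 641 and from 288 to 567 CPM. The endothelial markers did not overlap there, at 80.4 to 85.8 CPM in WT_day and 91.3 to 97.4 CPM in WT_night. The neuronal marker Tubb3 was listed at 0 in every library. The part of these cell types in the histone results was not tested.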

How the data were processed

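Reads were aligned with HISAT2 to mm10 and counted per gene with featureCounts, per the submitters' processing notes; versions and the handling of reads that match several genes are not given in the sources used here. The authors deposited raw counts per gene for each of the 20 libraries. One deposited file, that of WT_night 3, is laid out differently and its values were read as counts too. Groups follow the titles, except for KO_day 5, which follows the time field.

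The 65 histone genes and the gene lists were chosen with earlier results of these data known. Named are every member that passed a test, the 12 with the highest mean CPM, the highest per kb of each class and cluster, those beside the rule's threshold of 20 reads and, of the other lists, up to 4 by p in the averaged comparisons. Counts were scaled with edgeR 4.0.16 (TMM factors, filterByExpr with a minimum count of 10) in R 4.3.3, and 22181 genes were fitted with 1 quasi-likelihood model over the 4 groups. The contrasts were tested, 2-sided, with Benjamini-Hochberg adjustment over all genes at 0.05. A printed change is a log2 fold change with its SE. CPM per kb divides by the exon length in GENCODE M21 (GRCm38). DESeq2 1.42.0 was an alternative. The model was tested on simulated counts. Between libraries of a group, 40 pairs differed by more than sampling noise (chi-square per degree of freedom 5.58 to 53.7), so none was merged. Stem-loops and shared windows were read from GENCODE transcripts, and promoters from RefSeq.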

Additional observations from a re-analysis of the deposited data

Results flagged for a closer look

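In 8 of 108 groups of 5 libraries checked, 1 library lay apart from the other 4 by a gap that was a large part of the whole range; chance gives about 5% of groups. The summed level of the H2B genes in WT_day 5 was 97.21 CPM, where the other 4 held 85.8 to 88.62. That of the H3 genes in KO_day 1 was 52.42 CPM, against 40.54 to 43.9. Hist4h4, the single gene of the Hist4 cluster, stood at 9.49 CPM in WT_night 4, against 7.98 to 8.39, and is counted both as a gene and as a cluster. Hist1h1d was at 10.8 CPM in KO_day 1, against 6.54 to 7.497. Hist1h2be was at 15.11 CPM in WT_night 5, against 12.14 to 12.88. Hist1h4c was at 50.78 CPM in WT_day 5, against 43.61 to 45.52. Hist1h4d was low in WT_day 4, at 66.42 CPM against 71.95 to 73.79.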

How the results depend on the processing

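No call of a member held under every alternative. Counts are of members called, with all genes called in the same fit after "of". KO against WT at night gave 3 of 2649 with all libraries, 7 of 3307 with DESeq2, 0 of 4 with the time field in place of the title, 0 of 6 over the libraries whose time labels agree, 1 of 1179 with the length trend removed and 0 of 914 with that removal and without WT_day 3. Leaving out 1 library gave 0 to 14. Night against day in WT gave 2 of 61 with all libraries, 11 of 330 with DESeq2, 6 of 108 with no filter on low counts, 0 of 0 with the time field, 0 of 76 with the length trend removed and 0 of 9 with that removal and without WT_day 3. There the members overlapping no other gene gave 1 in the same fit, by construction, since Hist2h2ac overlaps another gene and is not among them. Leaving out 1 library gave 0 to 5 there. Without WT_night 1, 2 and 3, chosen after seeing the data, these comparisons gave 0 of 11 and 0 of 9. Where no member was called with all libraries, those with agreeing labels gave 1 of 89 for KO against WT by day and 1 of 126 for night against day averaged over genotypes, where DESeq2 gave 1 of 196. Night against day in KO gave 2 of 469 with DESeq2 and 0 to 2 with 1 library left out. The interaction gave 9 of 858 with DESeq2, 1 of 105 with no filter and 0 to 11 with 1 library left out. The cause was not tested.

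The median of KO against WT averaged over times turned to -0.042 with agreeing labels, -0.057 without WT_night 1, 2 and 3 and -0.0097 without KO_night 1 (-0.0097 to 0.069 with 1 library left out). That of night against day averaged over genotypes turned to 0.064 without WT_night 1, 2 and 3, and that of night against day in KO to -0.055 with the time field. Restricted to members that overlap no other gene, the summed level fell to 458, 375, 402 and 431 CPM by construction, in the order WT_day, WT_night, KO_day, KO_night.

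Replicate numbers are shared by name only: of 30 same-numbered pairs 3 correlated above 0.1 (range -0.167 to 0.303), and 4 of 20 libraries correlated best with their own number. With a replicate block, 2 members of 1689 genes were called for KO against WT at night and 1 of 43 for night against day in WT, and with the length trend removed as well 0 of 600 and 0 of 52.

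Genes with few reads limit precision: the 5 untested members held 21 to 158 reads over 20 libraries.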

Other observations

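Among the members, 13 pairs start on opposite strands close to each other, 175 to 659 bp apart; all but 1 join an H2A and an H2B gene, and the higher level per length was 1.006 to 14.996 times the lower. Hist1h2an and Hist1h2bp were the closest, at 0.411 and 0.408 CPM per kb. Hist1h2ac and Hist1h2bc, 250 bp apart, stood at 1.11 and 16.7 CPM per kb, and Hist2h2ac and Hist2h2be, 238 bp apart, at 23.4 and 2.63. Hist1h2ae and Hist1h2bg, 175 bp apart, stood at 2.73 and 9.79 CPM per kb. For night against day in WT the fitted log2 changes were -0.55 and -0.22 in Hist1h2ac and Hist1h2bc, and -0.49 and -0.18 in Hist2h2ac and Hist2h2be. In Hist1h2ae and Hist1h2bg they were -0.21 and -0.18. Not every pair went this way: Hist1h2ag and Hist1h2bj had 0.22 and -0.069, and Hist1h2ak and Hist1h2bn -0.12 and -0.23. The difference within a pair was not tested.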
